A study of Mus musculus with 6 samples.

Results

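Interferon-stimulated genes are the genes that cells switch on when interferons bind their receptors, and 45 of them were followed here through resident immune cells of the gut wall. They were chosen by name as known targets of interferon, with earlier results of these data known. All 45 symbols were among the 26110 genes of the deposited table. RNA had been measured by bulk RNA-seq in MHCIIhi cells sorted from the small bowel muscularis externa (ME), the muscle coat that also holds the myenteric plexus. Both populations came from naive, untreated CX3CR1 GFP/+ mice (genotype CX3CR1+/GFP in the labels) on a C57BL/6 background, in which GFP replaces 1 Cx3cr1 allele and reports its activity. The GFP signal set the gate, and 3 libraries of CX3CR1- cells were compared with 3 libraries of CX3CR1+ cells. The study's general methods state that females were used, and no age is given in the labels. ME of several mice was pooled, and the sources do not say if each library drew on a separate pool, so that p-values measure only the spread between libraries. These cells are named dendritic cells in the labels and macrophages in the study.

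Type I interferons (IFN-α and IFN-β) act through the receptor chains Ifnar1 and Ifnar2 and the kinases Jak1 and Tyk2, which activate Stat2. With Irf9 it enters a complex that binds the interferon-stimulated response element (ISRE) in promoters. IFN-γ acts through Ifngr1 and Ifngr2, and its signal ends at the gamma-activated sequence (GAS). The products of the target genes block viral entry, translation or replication, restrict intracellular bacteria, or feed back on the pathway. A low tonic level of these transcripts is common in tissue macrophages also without infection.

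The values are estimated read counts that the authors normalized between libraries, so that a level can be compared between libraries but not between genes, because transcripts differ in length. From the smallest step in each library, about 5346381 to 17616761 reads had been assigned to genes, with overlapping depths in both groups, and 3 reads correspond to a normalized value of 1.39 to 5.36. Mitochondrial genes took 47.5 to 54.9% of the normalized total in CX3CR1- and 18.1 to 21.2% in CX3CR1+ libraries. Cx3cr1 itself, which checks the gate, was at 23.2, 18.9 and 28.5 in CX3CR1- and at 371, 380.4 and 347 in CX3CR1+ libraries. All 45 members averaged 10 or more across the 6 libraries, which was the filter for testing. Log2 fold changes are CX3CR1- minus CX3CR1+ on the log2(value + 1) scale, where a negative value means less transcript in CX3CR1- cells, and they come from limma over 17812 genes with Benjamini-Hochberg adjustment. Genes were called where the log2 fold change reached 1 in size and the adjusted p was 0.05 or less.

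Of the 45 interferon-stimulated genes, 12 were called lower in CX3CR1- cells (26.7%), where 8.15% of all tested genes were. None was called higher by limma, where 12.2% of all tested genes were. At an unadjusted p under 0.05, 22 members were lower and 2 were higher, where 16.8% and 18.6% of all tested genes were. The 12 are Ifit2, Oas1a, Oas1g, Oas2, Oasl2, Mx2, Rsad2, Iigp1, Ifi204, Rtp4, Bst2 and Parp14, and they come from 7 of the 11 families into which the members were sorted. By the adjusted p alone, 16 were lower, beside 11% of all tested genes, and 2 were higher, Ifit1 and Ifitm1, beside 13.3%. The 3 libraries of one group did not overlap those of the other in 26 members. These were lower in CX3CR1- cells in 23 members, beside 19.8% of all tested genes, and higher in Ifit1, Ifitm1 and Ifitm3, beside 20.3%. The median log2 fold change was -0.60 over the members and -0.0035 over all tested genes. A difference of this size in bulk RNA can come from fewer cells of a type or from less RNA per cell, and these cannot be told apart.

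**Figure D1:**
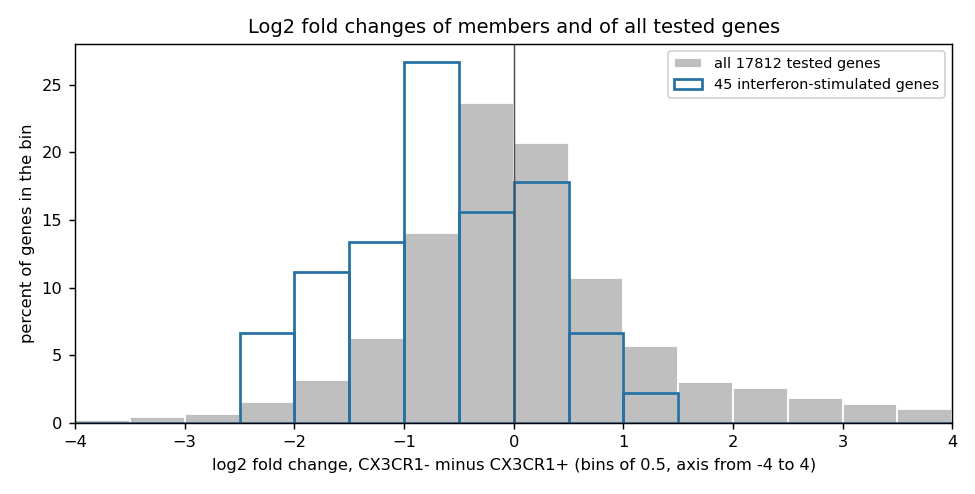
Share of genes (y axis, percent) in bins of log2 fold change between CX3CR1- and CX3CR1+ libraries (x axis, 0.5 per bin, drawn from -4 to 4), in grey for all 17812 tested genes and in blue outline for the 45 interferon-stimulated genes. The members lie to the left, with 33 below 0 and 12 above 0, and they span -2.40 to 1.04.

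Transcripts that mark several cell types differed in level between the sorted populations in the same libraries. The counts below stand beside 8.15% of all tested genes called lower and 12.2% called higher. Of 12 macrophage markers, 11 were called lower in CX3CR1- cells (all but Lyve1), with a summed level of 10809 to 12223 beside 52447 to 57892 in CX3CR1+ libraries. Cx3cr1, whose reporter set the gate, is among the 11, so that its direction was fixed by the sort. Of 10 markers of conventional dendritic cells, 8 were called higher, with sums of 3834 to 4384 beside 383 to 427. All 10 enterocyte markers were called higher, with sums of 17348 to 32077 beside 21.8 to 51.3. Enterocyte Alpi and Apoa4 were listed at 0 in the 3 CX3CR1+ libraries. Of 6 fibroblast markers, 6 were called higher, with sums of 4117 to 12168 beside 181 to 316, and of 7 B and plasma cell markers 6 were, with sums of 1703 to 3942 beside 68.7 to 97.3. Markers of plasmacytoid dendritic cells, a rich source of interferon, went both ways, with 3 of 7 called higher and Siglech called lower. By flow cytometry, the study found CD11c and CD103 on only a few of the CX3CR1- cells, while most carried CD11b alone. By immunostaining, it found the macrophage marker IBA-1 on all MHCII+ cells of the ME, the CX3CR1- cells included. The study also reported dendritic cell markers among its most differential genes. Marker RNA does not tell the number of cells from the RNA per cell. The part of these cell types in the levels of the interferon-stimulated genes was not tested.

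**Figure D2:**
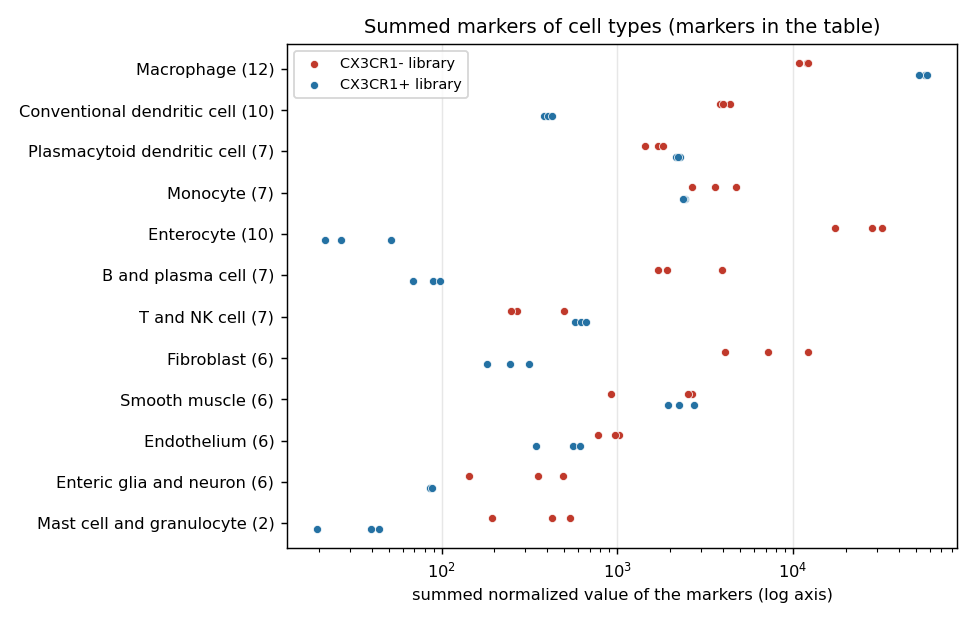
Summed normalized value of the markers of 12 cell types (x axis, log scale) in each of the 3 CX3CR1- (red) and 3 CX3CR1+ (blue) libraries, with the number of markers in the table in brackets. Macrophage markers sum to 52447 or more in every CX3CR1+ library and to at most 12223 in CX3CR1- libraries, while markers of conventional dendritic cells, enterocytes, fibroblasts and B cells lie higher in CX3CR1- libraries.

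Promoter windows of 250 bases before to 50 after the start were given for 36 of the 45 members by RefSeq (GRCm38.p6). The windows not given are those of Oas2, Mx1, Mx2, Usp18, Iigp1, Ifi204, Ifi27l2a, Rtp4 and Parp14. The letters GAAANNGAA, the core of the ISRE, were searched on both strands, and overlapping matches were counted as separate. They stood in a window of 24 of the 36 members (66.67%) and of 9.76% of 27025 genes. Among members called lower they stood in 4 of 6, all but Ifit2 and Oasl2. Among the rest they stood in 20 of 30, which is 66.67% in both sets. Oas2, Mx2, Iigp1, Ifi204, Rtp4 and Parp14 were also called lower, but have no window and are not in this share. Of the 12 members with a log2 fold change above 0, 5 held them (41.67%). The core of the GAS, TTCNNNGAA, stood in 12 members (33.33%) and in 9.55% of all genes. It stood in 3 of the 6 members called lower that have a window (50%) and in 9 of the other 30 (30%). The stretches below were chosen because they set neighbours on a chromosome side by side, Ifit1 with Ifit3, and Oas1a and Oas1g, which were called lower, with Oas3, which was not. They add Rsad2, which was called lower, and Isg15 and Gbp2, which were not called, and all those shown hold the ISRE core. They read 5′ to 3′ on the strand of the gene, and capitals mark the ISRE core, which appears as TTCNNTTTC where it lies on the opposite strand.
Ifit1 (chr19:34640767-34640826, plus strand): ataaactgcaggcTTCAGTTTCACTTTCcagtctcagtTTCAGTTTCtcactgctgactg
Ifit3 (chr19:34583368-34583441, plus strand): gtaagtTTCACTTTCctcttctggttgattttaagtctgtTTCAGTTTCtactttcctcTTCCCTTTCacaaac
Oas1a (chr5:120907526-120907585, minus strand): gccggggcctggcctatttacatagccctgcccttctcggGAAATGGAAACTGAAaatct
Oas1g (chr5:120887614-120887673, minus strand): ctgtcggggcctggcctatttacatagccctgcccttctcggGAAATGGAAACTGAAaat
Oas3 (chr5:120777698-120777757, minus strand): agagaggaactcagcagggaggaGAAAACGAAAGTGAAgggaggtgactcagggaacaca
Rsad2 (chr12:26456538-26456597, minus strand): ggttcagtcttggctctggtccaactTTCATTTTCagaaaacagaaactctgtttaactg
Isg15 (chr4:156200857-156200916, minus strand): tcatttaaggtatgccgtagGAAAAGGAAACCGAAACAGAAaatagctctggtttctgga
Gbp2 (chr3:142620579-142620638, plus strand): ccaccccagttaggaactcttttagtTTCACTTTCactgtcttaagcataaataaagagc
Ifit1, Ifit3 and Isg15 held 3 cores each, Oas1a, Oas1g and Oas3 held 2, and Rsad2 and Gbp2 held 1. The stretches of Oas1a and Oas1g were identical at 57 of 58 aligned bases.

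The IFIT proteins bind foreign or unmodified RNA ends and hold back their translation. The 4 members lie together on chr19:34550694-34650009 (GRCm38), and they did not move as a block. Ifit2 was at 27.3, 51.5 and 57.1 in CX3CR1- libraries and at 143, 107 and 131 in CX3CR1+ libraries. There was no overlap, and Ifit2 was lower in CX3CR1- cells with a log2 fold change of -1.52 ± 0.34 (SE, n = 3 per group, adjusted p = 0.00854, limma). Ifit1 went the other way, with 111, 143 and 172 beside 84.6, 80.4 and 62.3. Its groups did not overlap either, and its log2 fold change of 0.88 ± 0.28 (adjusted p = 0.0426, limma) stayed under the fold threshold. Ifit1 is 1 of the 2 members that were higher in CX3CR1- cells by the adjusted p, and its values were set beside Ifit2 after they were seen. Its adjusted p was above 0.05 in 10 of the 16 other settings, at most 0.154. Ifit3 (log2 fold change -0.71, adjusted p = 0.149) and Ifit3b (-0.68, adjusted p = 0.413) overlapped between groups. Without CX3CR1- replicate 3, Ifit3 was called lower at -1.01 (adjusted p = 0.0390). These paralogs share 61.81% and 55.26% of their 31-base words with other genes, mostly with each other, so that the split of reads between them is uncertain, whereas Ifit2 shares none.

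The oligoadenylate synthetases sense double-stranded RNA and switch on RNase L. Of the 6 members, 4 were called lower in CX3CR1- cells, beside 8.15% of all tested genes. Oas1a, Oas1g, Oas2 and Oas3 lie on chr5:120730333-120907521 (GRCm38), and Oasl1 and Oasl2 at chr5:114896936-114937915. Oas1g was at 29.3, 41.3 and 26.7 in CX3CR1- and at 125, 137 and 159 in CX3CR1+ libraries. Oas1a was at 58.4, 75.1 and 69.8 and at 233, 194 and 189.8 in the same order. In both genes the lowest CX3CR1+ library lay above all CX3CR1- libraries, with log2 fold changes of -2.10 ± 0.30 (adjusted p = 0.000644, limma) and -1.59 ± 0.25 (adjusted p = 0.00107). Oas1a and Oas1g share 68.84% and 55.05% of their 31-base words with other genes, almost all with each other, and their separate levels are uncertain.

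Oas2, which shares no such word with another gene, was at 71.2, 68.4 and 156 in CX3CR1- and at 386, 271 and 423 in CX3CR1+ libraries. Its log2 fold change was -1.94 ± 0.34 (adjusted p = 0.00230, limma), the groups apart although CX3CR1- replicate 3 was the highest of its group. Oasl2, an OAS-like protein with ubiquitin-like repeats, was at 209.8, 282 and 259 beside 528, 494 and 655. It differed by -1.16 ± 0.21 (adjusted p = 0.00263), which became -0.99 when the libraries were set to the same total without mitochondrial genes. Oas3 and Oasl1, an inhibitor of Irf7 translation, overlapped between groups with log2 fold changes of 0.24 (95% confidence interval -0.45 to 0.93) and 0.32 (-0.65 to 1.30). Oas3 was not called while its neighbours on the chromosome were, and that difference between genes was not tested. The stretch shown for Oas3 holds the ISRE core as those of Oas1a and Oas1g do. Oas1b is a further paralog that was also measured by qPCR in the study, beside Isg15 and Usp18. That qPCR was on unsorted ME in a time course after surgical manipulation of the gut, and not on sorted cells of naive mice. In these libraries Oas1b was at 34.0, 27.5 and 32.3 beside 74.2, 46.3 and 45.7, and its log2 fold change of -0.77 did not pass (adjusted p = 0.143). With quantile normalization, Oas1b was called lower at -1.08 (adjusted p = 0.0468).

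The Mx proteins are dynamin-like GTPases that trap viral nucleocapsids. Mx2 was at 19.6, 21.6 and 17.3 in CX3CR1- and at 83.2, 95.6 and 98.4 in CX3CR1+ libraries. The spread within each group was small beside the distance between them, and Mx2 was called lower at -2.19 ± 0.32 (adjusted p = 0.000715, limma). These values rest on as few as about 12 reads in a library, CX3CR1- replicate 2. Mx1, its neighbour on chr16:97447035-97560900 (GRCm38), overlapped between groups at -0.30 (95% confidence interval -1.12 to 0.51). The annotation lists Mx2 as a polymorphic pseudogene, because the reading frame is open in some mouse strains and not in others.

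Isg15 is a ubiquitin-like modifier, Herc6 the main ligase that attaches it in mice, and Usp18 removes it and also shuts down IFNAR signalling. None of the 3 was called. Usp18 was at 36.7, 17.1 and 17.4 in CX3CR1- and at 86.8, 38.7 and 39.2 in CX3CR1+ libraries. These groups lay next to each other without overlap, and the log2 fold change of -1.16 ± 0.47 did not pass (adjusted p = 0.102, limma). With quantile normalization, Usp18 was called lower at -1.48 (adjusted p = 0.0458). Isg15 was at 62.6, 127 and 97.7 beside 179, 132 and 109, with an overlap and a log2 fold change of -0.57 (95% confidence interval -1.30 to 0.15), which leaves room for a difference past the fold threshold. Herc6 was at -0.18 (-0.73 to 0.36).

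Rsad2, or viperin, makes a chain-terminating nucleotide from CTP that the kinase Cmpk2 supplies, and both genes lie on chr12:26442746-26479837 (GRCm38). Rsad2 was at 44.2, 62.0 and 81.4 in CX3CR1- and at 196, 199.9 and 228 in CX3CR1+ libraries. It was called lower at -1.76 ± 0.29 (adjusted p = 0.00141, limma), and every CX3CR1+ library exceeded every CX3CR1- library. Cmpk2 overlapped between groups at 51.7 to 61.3 and 33.7 to 53.5, with a log2 fold change of 0.35 (95% confidence interval -0.37 to 1.07). The intervals of the pair do not meet, since that of Rsad2 ends at -1.12, but the difference between the genes was not tested.

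The IFITM proteins sit in plasma and endosomal membranes and hinder the fusion of viruses, and they gave the highest family median, 0.34. Ifitm1 was at 208, 256 and 293 in CX3CR1- and at 128, 180.4 and 100.2 in CX3CR1+ libraries. It was higher in every CX3CR1- library, at a log2 fold change of 0.91 ± 0.27 (adjusted p = 0.0347, limma) that stayed under the fold threshold. Its adjusted p was above 0.05 in 6 of the 16 other settings, at most 0.142. With the same total without mitochondrial genes, Ifitm1 and Ifit1 passed both thresholds and were called higher. Ifitm3 (0.34, adjusted p = 0.158) and Ifitm2 (-0.40, adjusted p = 0.0860) had groups that did not overlap in opposite directions, and neither passed. Ifitm3 passed the adjusted p in 2 of the 16 other settings, with quantile normalization (0.79, adjusted p = 0.00349) and with the same total without mitochondrial genes (0.51, adjusted p = 0.0289). Ifitm2 shares 55.52% of its 31-base words with other genes, and its level is uncertain.

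Among the transcription factors that interferon induces, Irf1, a mediator of the IFN-γ response, was at 859.8, 611 and 993 in CX3CR1- and at 1320.3, 1148 and 1314 in CX3CR1+ libraries. The groups did not overlap, and Irf1 was lower by the adjusted p only, at -0.64 ± 0.20 (adjusted p = 0.0419, limma). This p was above 0.05 in 8 of the 16 other settings, at most 0.353. Irf7, the master factor of IFN-α genes, and the ISRE-binding Irf9 and Stat2 overlapped between groups. Their log2 fold changes were 0.53 (95% confidence interval -0.19 to 1.26), 0.27 (-0.26 to 0.79) and 0.25 (-0.40 to 0.89). Stat2 varied most in CX3CR1- libraries, from 347 to 824.

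The guanylate-binding proteins and the immunity-related GTPases (IRG) attack the vacuoles of intracellular pathogens and respond strongly to IFN-γ. None of the 4 guanylate-binding members was called, and all 4 lay below 0, from -0.60 to -0.17. Gbp5, the largest of these differences, was at 198, 223 and 139.6 in CX3CR1- and at 239, 255 and 355 in CX3CR1+ libraries. Its groups lay close together without overlap, and the log2 fold change of -0.60 ± 0.26 did not pass (adjusted p = 0.128, limma). Gbp7 (adjusted p = 0.0829) and Gbp3 (adjusted p = 0.188) also had groups apart, and Gbp2 (adjusted p = 0.662) did not.

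Of the 4 IRG genes, Iigp1 alone was called lower, beside 8.15% of all tested genes. Iigp1 was at 175, 156 and 165 in CX3CR1- and at 536, 393 and 321 in CX3CR1+ libraries, a log2 fold change of -1.30 ± 0.24 (adjusted p = 0.00280, limma). The CX3CR1- libraries were tightly grouped and the CX3CR1+ libraries wide, with no overlap. Igtp (-0.55), Irgm1 (-0.30) and Irgm2 (-0.09) overlapped between groups.

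Ifi203 and Ifi204 belong to the PYHIN family of nuclear DNA-binding proteins on chr1:173747293-173942672 (GRCm38). Ifi204 gave the largest difference of all 45 members. It was at 188, 296 and 324 in CX3CR1- and at 1464, 1313 and 1407 in CX3CR1+ libraries, a log2 fold change of -2.40 ± 0.22 (adjusted p = 4.37e-05, limma). The CX3CR1+ mean was 5.18-fold the CX3CR1- mean, and the groups lay far apart. Ifi203 was at 1147 to 1330.0 beside 2081 to 2372, lower by the adjusted p at -0.83 ± 0.15 (adjusted p = 0.00242). With quantile normalization, Ifi203 was at -0.43 and no longer passed (adjusted p = 0.0551). Ifi204 shares 34.55% and Ifi203 21.86% of their 31-base words with other genes, so that reads of this cluster can be split between paralogs.

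Of the 11 remaining antiviral members, 3 were called lower, beside 8.15% of all tested genes. Bst2, or tetherin, which holds budding virus at the cell surface, was at 53.1, 92.7 and 110.1 in CX3CR1- and at 289, 329 and 274 in CX3CR1+ libraries. Bst2 differed by a log2 fold change of -1.85 ± 0.30 (adjusted p = 0.00131, limma), and it shares no 31-base word with another gene. Parp14, an ADP-ribosyltransferase, was at 732, 845 and 596 beside 1849, 1606 and 1708. Its groups were apart, at a log2 fold change of -1.26 ± 0.18 (adjusted p = 0.000576) that became -0.91 after quantile normalization. Rtp4, a chaperone of receptors that also binds viral RNA, was at 60.2, 53.8 and 52.5 beside 210.0, 91.7 and 139.6. Rtp4 was called at -1.31 ± 0.33 (adjusted p = 0.0160), and the call was lost without CX3CR1+ replicate 1 (adjusted p = 0.0826) or replicate 3 (adjusted p = 0.0601).

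The other 8 of this group were not called. Trim30a, a restrainer of Toll-like receptor signalling (-0.90, adjusted p = 0.0168, limma), and Ifi27l2a (-0.70, adjusted p = 0.0438) were lower by the adjusted p alone, which was above 0.05 in 3 and 9 of the 16 other settings. Trim30a was called lower at -1.06 without CX3CR1- replicate 2 (adjusted p = 0.00900). Ifi44 (-1.28, adjusted p = 0.0725) and the double-stranded RNA kinase Eif2ak2 (-0.63, adjusted p = 0.0866) had groups that did not overlap and did not pass. Ifi44 was at 12.2 to 32.6 in CX3CR1- and 35.9 to 75.2 in CX3CR1+ libraries, and its lowest library rests on about 12 reads. Ifi44 was called lower at -1.62 with quantile normalization (adjusted p = 0.0371) and at -1.61 without CX3CR1- replicate 2 (adjusted p = 0.0315). Xaf1 (-0.62), Ifi35 (0.04) and Samd9l (0.07) overlapped. The exonuclease Isg20 had the highest log2 fold change of the 45, 1.04 ± 0.53, with 37.8 to 94.2 beside 12.1 to 43.9, an overlap and an adjusted p of 0.190.

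**Figure D3:**
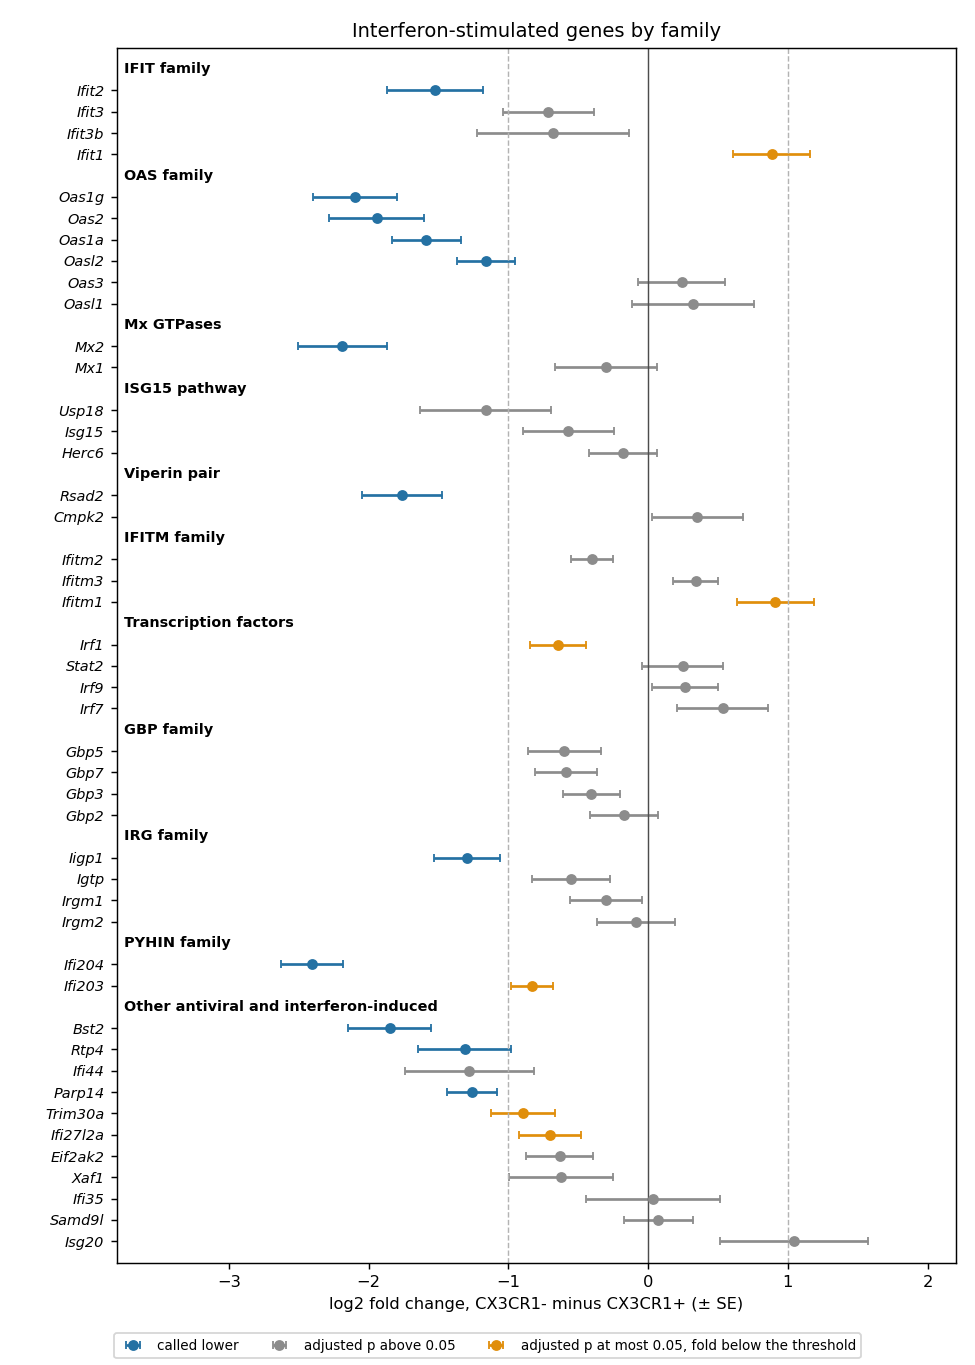
Log2 fold change of each of the 45 members between CX3CR1- and CX3CR1+ libraries (x axis, point with SE, n = 3 per group), sorted by family (y axis), with dashed lines at the fold threshold of 1 in both directions. The 12 blue points are the members called lower, the 6 orange points have an adjusted p of at most 0.05 with a smaller fold, and no member was called higher.

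**Figure D4:**
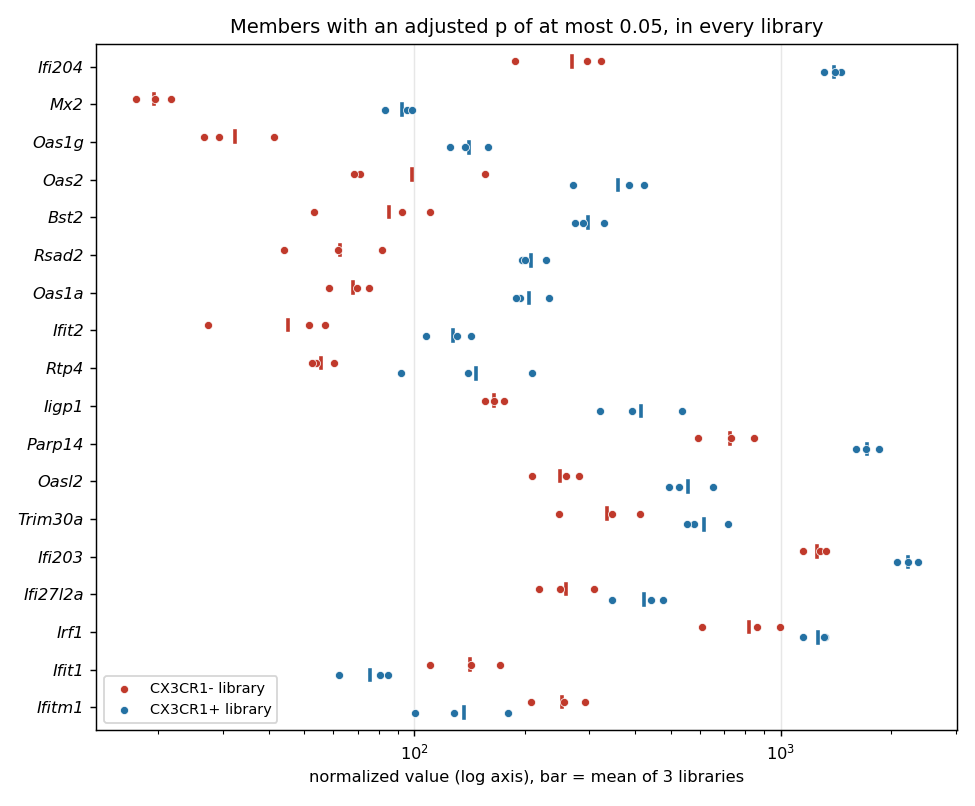
Normalized value (x axis, log scale) in each of the 3 CX3CR1- (red) and 3 CX3CR1+ (blue) libraries for the 18 members with an adjusted p of at most 0.05 (y axis), with a bar at each mean. The groups are apart in all 18, with the red points to the left in 16 genes and to the right in Ifit1 and Ifitm1.

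The interferon receptors were compared in the same way. Of the 6, 4 were called lower in CX3CR1- cells and 1 higher, beside 8.15% and 12.2% of all tested genes. Ifnar1 was at 418, 571 and 569 in CX3CR1- and at 955, 1111 and 1288 in CX3CR1+ libraries, and Ifnar2 at 389, 346 and 319.8 beside 859.5, 819 and 958. Both transcripts were called lower in CX3CR1- libraries, at log2 fold changes of -1.11 ± 0.20 (adjusted p = 0.00246, limma) and -1.32 ± 0.18 (adjusted p = 0.000432). The difference in Ifnar1 shrank to -0.84 with quantile normalization and was under the fold threshold in 3 of the 16 other settings. Of the IFN-γ receptor, the signalling chain Ifngr2 was called lower (-1.60 ± 0.20, adjusted p = 0.000262), and the binding chain Ifngr1 did not pass (-0.54, adjusted p = 0.0619). Il10rb, the chain that IFN-λ shares with IL-10, was called lower at -2.25 ± 0.25 (adjusted p = 0.000129). Ifnlr1, the specific IFN-λ chain that is typical of epithelium, was called higher with 26.1, 25.0 and 17.9 beside 2.78, 3.28 and 11.3 (adjusted p = 0.0441). The call of Ifnlr1 was lost in 7 of the 15 other settings that tested it, among them without any 1 of the CX3CR1- libraries or without CX3CR1+ replicate 1 or 2 (adjusted p up to 0.144). Its CX3CR1+ values rest on as few as 4 reads, and enterocyte markers were higher in the same CX3CR1- libraries, as given above; their part was not tested.

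Downstream, Jak2, a kinase of the IFN-γ receptor, was called higher in CX3CR1- cells with 1297, 1061 and 1058 beside 332, 444 and 387 (log2 fold change 1.55 ± 0.19, adjusted p = 0.000220, limma). Jak1 was lower by the adjusted p alone (-0.61, adjusted p = 0.0140), and Tyk2 (0.27, adjusted p = 0.523) did not pass. Irf4, a factor of dendritic cells and plasma cells, was called higher at 858, 930.5 and 919.8 beside 262, 345 and 266 (log2 fold change 1.64 ± 0.19, adjusted p = 0.000154). Irf3 and Irf5, which drive IFN-β and inflammatory genes, and Irf2 and Irf8 did not pass.

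Of 11 tested inhibitors of the pathway, 2 were called lower, beside 8.15% of all tested genes. Pias1, a SUMO ligase, was at 373, 627 and 212 beside 971, 717 and 889.6 (-1.21 ± 0.34, adjusted p = 0.0253, limma), a call lost in 6 of the 16 other settings, among them without CX3CR1- replicate 1 or 3 or CX3CR1+ replicate 1 or 3. Irf2bp2, a partner of Irf2, was at 1883, 2278 and 1863 beside 5412, 6026 and 6657 (-1.59 ± 0.15, adjusted p = 4.67e-05). Socs3 (-0.93) and Ptpn1 (-0.88) were lower by the adjusted p alone. Of 21 interferon genes, 3 were in the table and none reached the filter. Ifnb1 was at 3.13, 5.36 and 22.9 in CX3CR1- and at 3.70, 4.92 and 4.25 in CX3CR1+ libraries, which is about 3 to 23 reads per library. Ifna13 was at 0 in 4 of the 6 libraries and reached 8.20, and Ifnk was at most 7.15.

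**Figure D5:**
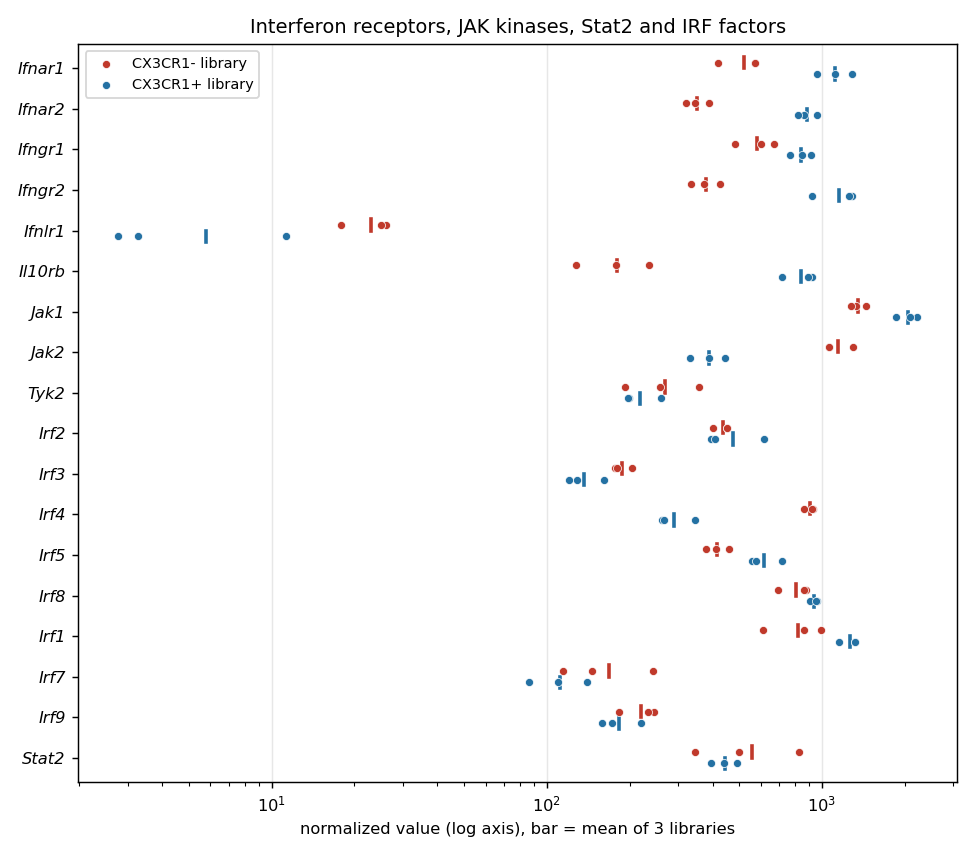
Normalized value (x axis, log scale) in each of the 3 CX3CR1- (red) and 3 CX3CR1+ (blue) libraries, with a bar at each mean, for the interferon receptors, the JAK kinases, other IRF factors and the 4 member transcription factors (y axis). Ifnar1, Ifnar2, Ifngr2 and Il10rb lie to the left in CX3CR1- libraries, and Ifnlr1, Jak2 and Irf4 to the right.

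A second list of 68 known interferon-stimulated genes that are no members was read beside the 45. It had 64 tested genes, of which 11 were called lower and 5 higher in CX3CR1- cells, beside 8.15% and 12.2% of all tested genes. The median log2 fold change was -0.32 over this list and -0.0035 over all tested genes. The largest differences downwards were in the PYHIN genes Ifi213, with 51.3, 69.0 and 90.7 beside 599, 601 and 567 (log2 fold change -3.09, adjusted p = 1.96e-05, limma), and Ifi207 (-2.62, adjusted p = 8.99e-06), which lie in the family of Ifi204. The third was Slfn8, a Schlafen gene (-2.12, adjusted p = 4.56e-05). Upwards they were Ifitm6 (4.06, adjusted p = 0.000154), with 231, 325 and 138 beside 20.9, 6.59 and 12.8, then the helicase Helz2 (2.11, adjusted p = 0.000319) and Ly6a (1.80, adjusted p = 0.00256). The members and this list have no gene in common.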

How the data were processed

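The authors pseudoaligned the reads with Kallisto at default settings to the mm10 transcriptome of GENCODE, took the estimates up with tximport, added transcripts up to genes and scaled the libraries with DESeq2. The deposited values are thus a signal normalized between libraries, and no count test was run, because 42.6 to 44.7% of the values in a library came out as whole reads (within 0.01 of a read). The library kit does not mark strand. Libraries were grouped by their titles, and the labels give no batch or pairing. The log2(value + 1) of genes that averaged 10 or more across the 6 libraries was fitted with limma 3.58.1 (R 4.3.3, eBayes with trend), two-sided, with Benjamini-Hochberg adjustment over the 17812 tested genes. The fit was also run on counts simulated with the same setting of spread for every gene and both groups. In the real libraries the median SD over all tested genes was 0.47 in CX3CR1- and 0.30 in CX3CR1+ cells. The run is therefore no check of how the fit handles that difference. For single genes, an exact permutation test of 3 against 3 libraries cannot go below 0.1 and was not used. The precision of each level is the spread over the 3 libraries. Of the listed genes, 23 symbols occur more than once.

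The members, their families and the other lists were chosen with earlier results of these data known. Values in every library are given for all called members and for the member with the largest difference in each family. Genes of the pathway lists are named where called, and others beside them after their values were seen. From the second list of interferon-stimulated genes, the 3 largest differences in each direction are named. Positions and shared 31-base words come from GENCODE M21 (GRCm38, the build of mm10), whereas the authors used release M16. Alternatives were pseudocounts of 0.5 and 10, no filter and a minimum mean of 50, scaling by median of ratios or quantiles, the same total without mitochondrial genes, no trend, library weights, a block and leaving out each library. Plots were drawn with matplotlib 3.10.9. Some genes of the pathway lists are not reported here.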

Additional observations from a re-analysis of the deposited data

How the results depend on the processing

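The number of members called lower in CX3CR1- cells (12) was 11 to 14 over the 16 other settings, and 9 of the 12 genes were called lower in each of them. Parp14 was lost with quantile normalization, Oasl2 with the same total without mitochondrial genes, and Rtp4 without CX3CR1+ replicate 1 or 3. Calls of lower members were gained for Usp18 and Ifi44 with quantile normalization, for Ifi44 and Trim30a without CX3CR1- replicate 2 and for Ifit3 without CX3CR1- replicate 3. Of the 45 members, 36 kept their sign in every setting that tested them (a minimum mean of 50 left 41). Quantile normalization moved the median of all genes to -0.15 and the same total without mitochondrial genes moved it to 0.17, so that the member medians lay 0.36 and 0.60 below it. With the same total without mitochondrial genes, the median of the members became -0.43, 2 members were called higher, Gbp2 reversed to 1.12e-05 and Irgm2 to 0.084. With quantile normalization, Ifitm2 reversed to 4.67e-05 and Ifi35 to -0.10. The count of members higher by the adjusted p (2) became 1 without a filter, 0 without a trend and 0 with library weights. Adjacent library numbers were tried as a replicate block, although their deviations correlated at only 0.014 to 0.10, and this count became 1 with it. No other count moved by over 1.5 times. Leaving out 1 library gave 0 to 2 members called higher and 0 to 2 higher by the adjusted p. It also reversed genes near 0, with ranges of -0.49 to 0.63 for Ifi35, -0.30 to 0.041 for Gbp2, -0.33 to 0.097 for Irgm2, -0.10 to 0.33 for Samd9l, -0.0076 to 0.43 for Oas3, -0.36 to 0.0089 for Herc6, -0.080 to 0.54 for Stat2 and -0.040 to 0.73 for Oasl1. With 1 more A at the end of the ISRE core, 22 members in place of 24 held it. Where a setting changed a result, the cause was not tested. With as few as 12 reads behind Mx2 or Ifi44 in a library and 7 behind Ifit3b, depth limits the low members.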

Other observations

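The members were not spread evenly over the libraries of a group. CX3CR1+ replicate 1, the most deeply sequenced library, held the highest value of its group in 30 of the 45 members (66.7%), beside 34.5% of all tested genes. Its median deviation from the group mean was 0.17 on the log2 scale over the members and 0.01 over all tested genes. Without it, 11 members were called lower, and Rtp4 was the one lost. CX3CR1- replicate 2 held the highest value of its group in 20 of the 45 members (44.4%), beside 33.7% of all tested genes. The median SD of the members over 3 libraries was 0.40 in CX3CR1- and 0.23 in CX3CR1+ cells on the log2 scale, beside 0.47 and 0.30 over all tested genes.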
